A study of Danio rerio with 7 samples.

Results

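The genes described here are 10 regulators of cell growth and of the passage from G1 into S phase, followed in whole larvae of a zebrafish line that carries a transgene for CD36, a fatty acid receptor. They are the Myc genes myca, mych and mycn, the D-type cyclin genes ccnd1 and ccnd2a, the E-type cyclin genes ccne1 and ccne2, the kinase genes cdk2 and cdk4, and e2f1. They were chosen by gene symbol, and all 10 were found among the 32520 reference genes measured in each library and among the 29567 genes of the deposited comparison tables. All larvae overexpressed CD36 and were sampled at 15 days post fertilization, after feeding that began at 5 days and, in every group, included paramecium. The high-fat diet (24%) with CACF at 40 µg/ml gave 2 libraries, labelled fish 2 and fish 4. The high-fat diet (24%) without CACF gave 2 libraries, also fish 2 and fish 4. The normal diet (12%), named as the control by the series, gave 3 libraries, fish 1, 2 and 4. After the last meal larvae were kept overnight in E3 buffer with or without CACF, per the labels' protocols. The labels do not explain CACF, name the promoter of the CD36 transgene, say of what the diets hold 12% or 24%, or state whether a library is 1 larva or a pool, so a p-value here reflects library-to-library spread, which may be technical.

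Myc proteins are transcription factors that pair with Max and activate genes of growth, ribosome production and metabolism. D-type cyclins bring Cdk4 to the Rb protein, whose phosphorylation frees E2F factors, and E2F factors then activate the cyclin E genes and the genes of DNA synthesis. Cyclin E with Cdk2 completes the inactivation of Rb and starts replication. In a larva, dividing cells are found in growing tissues such as gut, brain and skin. In a bulk sample, more dividing cells and more RNA per dividing cell cannot be told apart.

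Reads per library ran from 12699552 to 22543693, and the 2 high-fat libraries without CACF were the shallowest. CACF fish 2 and normal-diet fish 1 were the least like the rest, with a median correlation of 0.875 and 0.876 to the remaining libraries, whereas that of each of the other 5 was at least 0.940. Mitochondrial reads were 20.9% to 28.2% of the CACF libraries, 10.8% to 14.0% of the high-fat libraries and 7.74% to 17.8% of the normal-diet libraries. Defining markers of muscle, liver, brain and skin were present in every library. The globin gene hbba2 was listed at 0 in all 7 libraries.

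Per length and on average, myca and mycn were the most abundant of the set. Averaged over the 7 libraries, myca had 30.7 TPM (transcripts per 1000000, the deposited abundance per length), mycn 23.2 TPM and mych 15.2 TPM. ccnd1 followed with 13.5 TPM, cdk4 with 4.74 TPM, ccne2 with 4.45 TPM, cdk2 with 3.08 TPM, ccnd2a with 1.89 TPM, ccne1 with 0.979 TPM and e2f1 with 0.396 TPM. Some neighbours in this order were separated in every library, namely myca above mycn, ccnd1 above cdk4 and ccne1 above e2f1, each in 7 of 7. Others were not, since mych was above ccnd1 in only 2 of 7 libraries and cdk4 above ccne2 in 4 of 7. Among the E-type cyclins, ccne2 held 70.1% to 89.3% of their joint TPM, and among the 2 D-type cyclins ccnd1 held 80.8% to 95.6%. Of the 10 genes, 9 passed the filter of at least 1 TPM in at least 2 libraries. e2f1 did not, and ccne1 passed it only through the 2 CACF libraries, so its difference from the other groups is partly built into the filter.

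**Figure D1:**
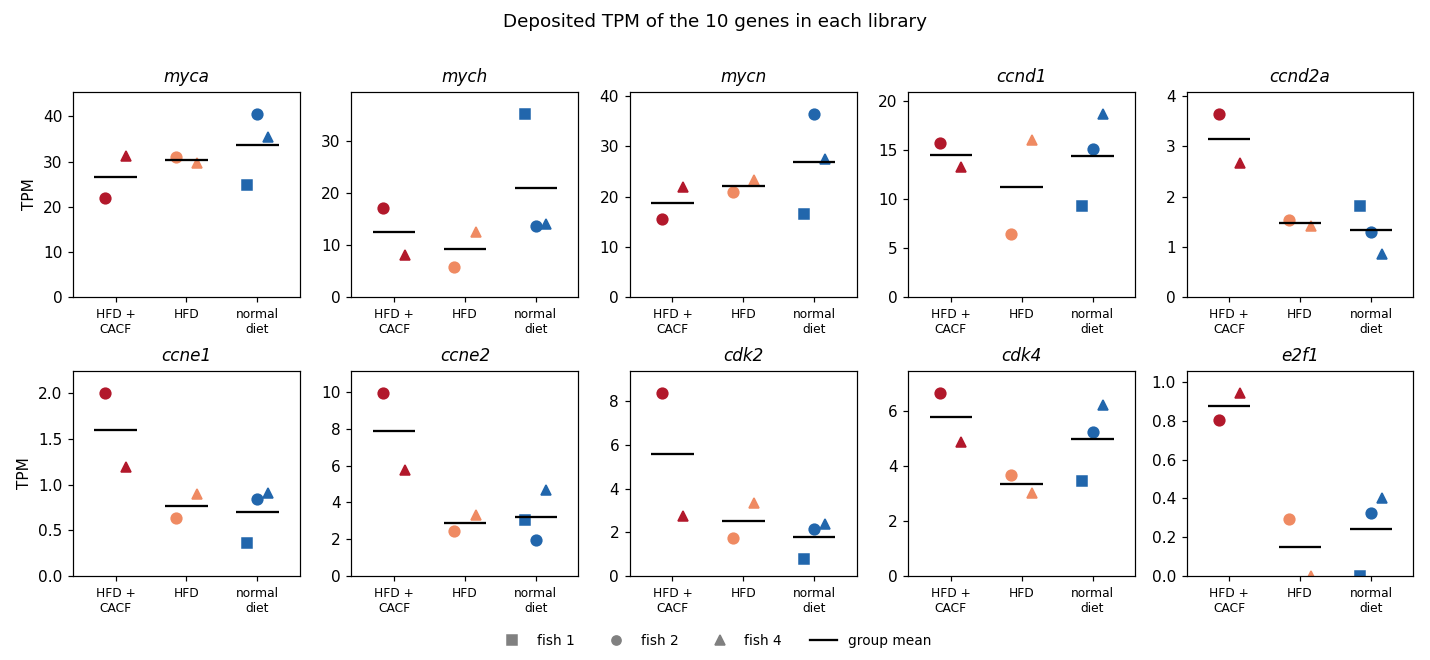
Deposited TPM (vertical axes, from 0) of the 10 genes in the 7 libraries, with larvae on the high-fat diet plus CACF on the left, the high-fat diet in the middle and the normal diet on the right; points are libraries and bars are group means. For ccne1, ccne2, ccnd2a and e2f1 both CACF libraries lay above the other 5, while mych was highest in normal-diet fish 1 at 35.3 TPM. With each group taken separately, 19.2% of all tested genes lay above the normal-diet libraries and 36.2% above the high-fat libraries. The share above all 5 was not counted. ccne1 passed the filter only through the CACF libraries, and e2f1 did not pass it.

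Each gene was also read on a second scale, the deposited normalized count, which is the number of reads divided by 1 size factor per library. The 2 scales did not always give the same ranking of libraries for the weakly expressed genes. In the abundance files, each library also lists loci assembled from its own reads. For mycn the assembled locus on the same strand had a TPM within 5% of that of the reference gene in 7 of 7 libraries, and for myca, mych and ccnd1 in 6 of 7. For ccne1 the highest assembled locus exceeded the reference gene by more than 1.5 times in 6 of the 6 libraries that had one, and the longest one covered at most 66.8% of the gene's span. ccnd2a, ccne2 and cdk2 showed such an excess in 3 of 7 libraries each and cdk4 in 2 of 7. At ccne2 locus and gene were equal in both CACF libraries. Normalized counts are therefore given beside TPM for these genes. How far this accounts for differences between the scales was not tested.

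**Figure D2:**
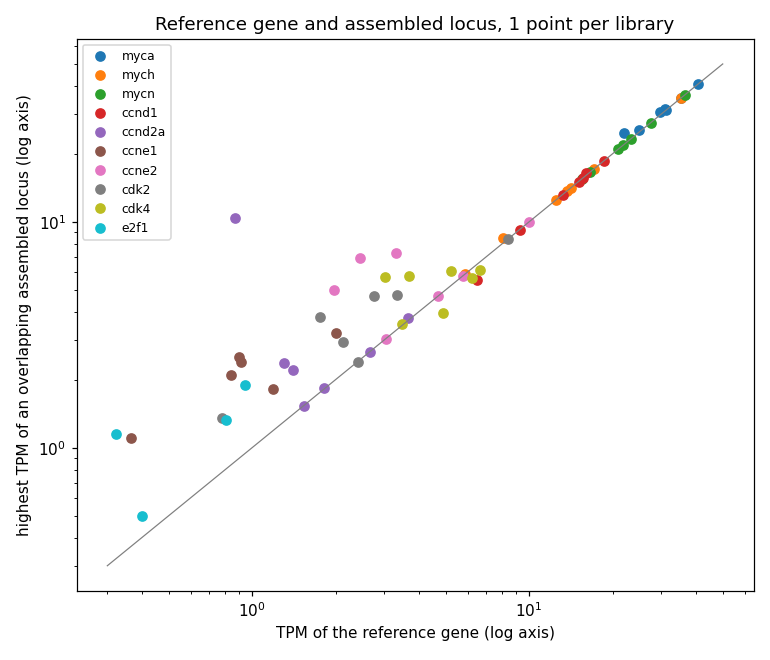
TPM of each reference gene (horizontal, log axis) against the highest TPM of an assembled locus that overlaps it on the same strand (vertical, log axis), with 1 point per gene and library and the line of equality in grey. The Myc genes and ccnd1 lie near the line, whereas ccne1 lies above it in all 6 of its libraries, and the farthest point is ccnd2a in normal-diet fish 4, at 12.0 times its reference value.

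The first comparison sets CACF on the high-fat diet against the normal diet. Diet and CACF differ together here, so their parts cannot be told apart in this comparison. On both scales the E-type cyclin genes, cdk2 and ccnd2a had higher means with CACF and the 3 Myc genes had lower means. None of the 9 tested genes passed in limma at an adjusted p of 0.05, where 14 of 18169 genes (0.0771%) did. In TPM both CACF libraries lay above all 3 normal-diet libraries for ccnd2a, ccne2 and cdk2, for ccne1, which passed the filter through those libraries, and for the untested e2f1. They lay below for 0 of the 10, and 19.2% of all tested genes lay above and 8.72% below. As these members had to pass the filter, nothing is read from their number. At an unadjusted p under 0.05, 3 of the 9 were higher (ccnd2a, ccne2 and cdk2) and 0 lower, against 12.5% of all genes in either direction. edgeR and DESeq2 on reads recovered from the normalized counts called 0 of them, where they called 0.0188% and 3.65% of all genes. limma on the normalized counts called 0 as well, against 0.148% of all genes. The authors' deposited table gave no adjusted p for e2f1. It had an adjusted p under 0.05 for 0 of the other 9 and for 1.34% of its genes with one. The median log2 fold change over the 9 genes was 0.20 in TPM and that over all tested genes 0.19. Median-of-ratios scaling of TPM put the median over all genes at 0.010. On the normalized counts the median of the same 9 genes was 0.018 and that of all genes 0.0085.

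cdk2, the kinase partner of cyclin E (ENSDARG00000026577, GRCz11 chromosome 11, 3301277 to 3308569, minus strand), had 8.40 and 2.75 TPM in CACF fish 2 and 4, against 0.775, 2.14 and 2.4 TPM in normal-diet fish 1, 2 and 4. The groups did not overlap, but CACF fish 2 stood far above the rest and CACF fish 4 only just above normal-diet fish 4. The log2 fold change was 1.15 ± 0.46 (SE; adjusted p = 0.349 in limma), the largest of the 9 in TPM. In normalized counts cdk2 had 202 and 70.9 in the CACF libraries, against 34.3, 49.1 and 64.1 on the normal diet, with a log2 fold change of 1.31 ± 0.53 (adjusted p = 0.341 in limma). Without CACF fish 2 the log2 fold change in TPM was 0.49, without CACF fish 4 it was 1.82, and without normal-diet fish 1 it was 0.86. The authors' deposited table gave a log2 fold change of 1.47 and an adjusted p of 0.284.

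ccne2, 1 of the 2 cyclin E genes (ENSDARG00000098529, chromosome 16, 40575742 to 40586793, plus strand), had 9.96 and 5.78 TPM with CACF and 3.03, 1.97 and 4.67 TPM on the normal diet. Both CACF libraries lay above all 3 normal-diet libraries (log2 fold change 1.08 ± 0.40, adjusted p = 0.331 in limma). The normalized counts were 298 and 175 with CACF, against 131, 112 and 150 on the normal diet, again without overlap (log2 fold change 0.81 ± 0.33, adjusted p = 0.345 in limma). In normalized counts both CACF libraries also lay above all 3 normal-diet libraries for cdk2, and for 16.3% of all genes on that scale. ccne1, the other cyclin E gene (ENSDARG00000098622, chromosome 7, 46019780 to 46029879, plus strand), had 2.01 and 1.19 TPM with CACF and 0.365, 0.840 and 0.911 TPM on the normal diet. In normalized counts ccne1 had 74.8 and 39.5 with CACF, against 19.3, 31.3 and 39.6 on the normal diet, where CACF fish 4 lay just below normal-diet fish 4. Its log2 fold change was 0.61 ± 0.33 in TPM (adjusted p = 0.465 in limma) and 0.89 ± 0.52 in normalized counts (adjusted p = 0.474 in limma).

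Of the D-type cyclins, ccnd2a alone lay higher with CACF in TPM. ccnd2a, a D2-type cyclin gene (ENSDARG00000051748, chromosome 25, 16973945 to 17239079, minus strand), had 3.65 and 2.66 TPM with CACF, against 1.82, 1.30 and 0.867 TPM on the normal diet, with no overlap (log2 fold change 0.85 ± 0.34, adjusted p = 0.354 in limma). In normalized counts it had 76.5 and 42.4 with CACF and 49.2, 26.8 and 21.9 on the normal diet. The groups thus overlapped there (log2 fold change 0.87 ± 0.53, adjusted p = 0.484 in limma). The highest locus assembled at ccnd2a had 3.74 and 2.66 TPM with CACF and 1.83, 2.38 and 10.4 TPM on the normal diet. By locus, too, the groups overlapped. ccnd1 (ENSDARG00000101637, chromosome 7, 54668303 to 54679595, minus strand) had 15.7 and 13.3 TPM with CACF and 9.25, 15.1 and 18.7 TPM on the normal diet. The CACF libraries of ccnd1 fell inside the normal-diet range, and its log2 fold change was 0.057 ± 0.45 in TPM (adjusted p = 0.966 in limma) and -0.20 ± 0.30 in normalized counts (adjusted p = 0.783 in limma). cdk4, the kinase partner of cyclin D (ENSDARG00000087937, chromosome 11, 135249 to 141592, minus strand), had 6.67 and 4.88 TPM with CACF and 3.47, 5.24 and 6.23 TPM on the normal diet. Its normalized counts were 103 and 87.0 with CACF and 83.5, 84.1 and 116 on the normal diet. The groups of cdk4 overlapped on both scales, with log2 fold changes of 0.20 ± 0.38 in TPM (adjusted p = 0.844 in limma) and 0.018 ± 0.35 in normalized counts.

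e2f1, which encodes an activating E2F factor (ENSDARG00000103868, chromosome 23, 43467799 to 43486714, minus strand), was close to the limit of detection. It had 18 and 26 reads in CACF fish 2 and 4, 6 and 0 reads in high-fat fish 2 and 4, and 0, 8 and 8 reads in normal-diet fish 1, 2 and 4. A count of 0 allows up to 3 reads in such a library, a one-sided 95% limit. Pooled by group, these were 1.1 reads per 1000000 with CACF (95% exact Poisson interval 0.797 to 1.47), 0.210 on the high-fat diet (0.0772 to 0.458) and 0.257 on the normal diet (0.147 to 0.417), where the intervals cover counting error only. Both CACF libraries held more e2f1 reads than any other library. limma on normalized counts gave log2 fold changes of 2.24 ± 1.31 over the normal diet (adjusted p = 0.471) and 2.6 ± 1.43 over the high-fat diet (adjusted p = 0.423). That fit kept genes with a normalized count of at least 10 in 2 libraries, which e2f1 reached only in the CACF libraries. Its differences in that fit are thus partly built into the filter. In edgeR without a filter the log2 fold change over the normal diet was 1.97 (adjusted p = 0.615) and that over the high-fat diet 2.20 (adjusted p = 0.655).

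The Myc genes had lower means with CACF on the high-fat diet than on the normal diet. For myca and mycn this was clearer in normalized counts than in TPM. myca, 1 of the 2 zebrafish counterparts of mammalian MYC (ENSDARG00000045695, chromosome 24, 10413484 to 10416284, plus strand), had normalized counts of 590 and 804 with CACF and 997, 990 and 1050 on the normal diet. mycn, the N-myc gene (ENSDARG00000006837, chromosome 20, 33294428 to 33299384, plus strand), had 557 and 764 with CACF and 861, 1179 and 1080 on the normal diet. For both genes the CACF libraries lay below all 3 normal-diet libraries in normalized counts, as they did for 16.7% of all genes on that scale. The log2 fold changes in normalized counts were -0.55 ± 0.23 for myca (adjusted p = 0.344 in limma) and -0.66 ± 0.25 for mycn (adjusted p = 0.320 in limma). In TPM, myca had 22.0 and 31.1 with CACF, against 24.8, 40.6 and 35.4 on the normal diet. mycn had 15.5 and 21.9 TPM with CACF, against 16.6, 36.5 and 27.6 TPM on the normal diet. On this scale the groups overlapped, through the low values of normal-diet fish 1, and the log2 fold changes were -0.32 ± 0.39 and -0.45 ± 0.42 (adjusted p = 0.749 and 0.664 in limma). Without CACF fish 2 these were -0.079 for myca and -0.22 for mycn.

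mych, a further Myc family gene (ENSDARG00000077473, chromosome 6, 50451337 to 50454833, plus strand), had 17.1 and 8.03 TPM with CACF and 35.3, 13.7 and 14.1 TPM on the normal diet. Normal-diet fish 1 alone lay above both CACF libraries, and its mych level was far from that of the other 2 normal-diet libraries. The log2 fold change was -0.65 ± 0.51 (adjusted p = 0.608 in limma), and it was -0.22 without normal-diet fish 1. The normalized counts of mych had the same order, with 559 and 225 with CACF and 1532, 369 and 440 on the normal diet (log2 fold change -0.82 ± 0.64, adjusted p = 0.580 in limma). Normal-diet fish 1 also had a summed TPM of 22918 over 10 lens markers, where the other 6 libraries had 245 to 646, and the part of this in the mych value was not tested.

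**Figure D3:**
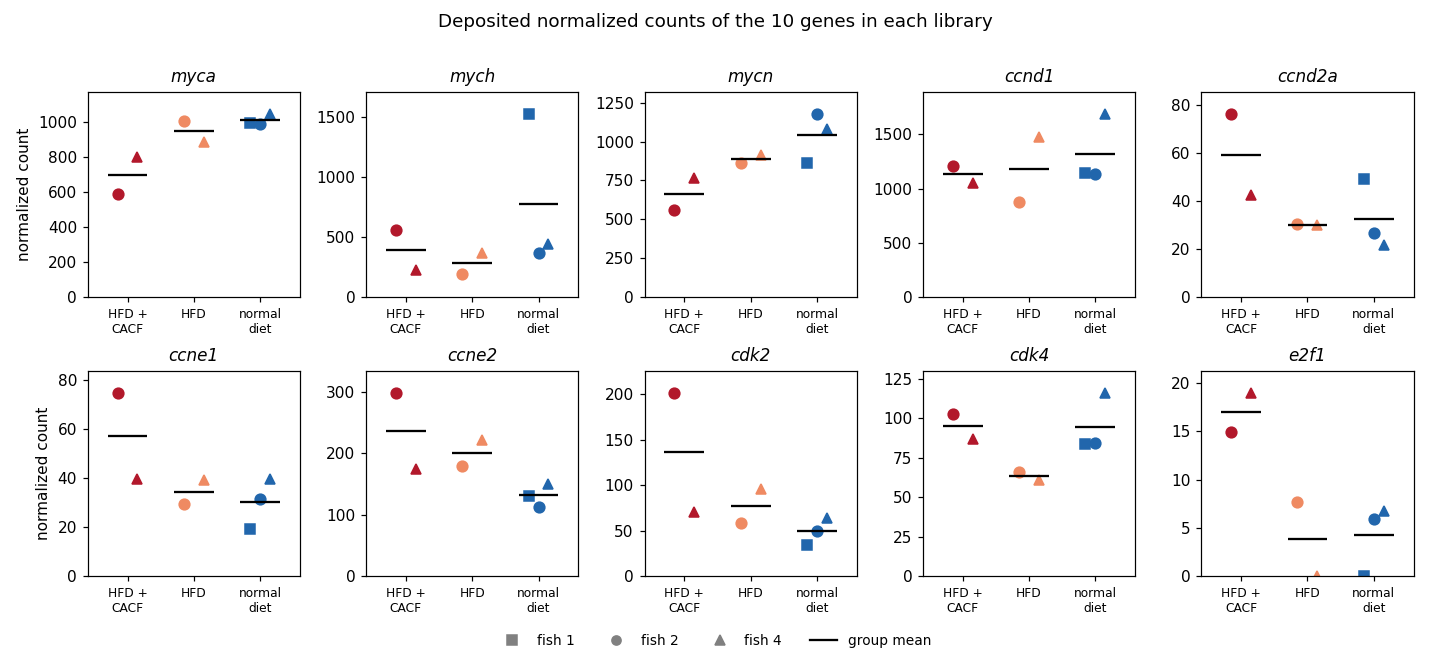
Deposited normalized counts (vertical axes, from 0) of the 10 genes in the 7 libraries, with the high-fat diet plus CACF on the left, the high-fat diet in the middle and the normal diet on the right; points are libraries and bars are group means. Both CACF libraries lay below the other 5 for myca, with 590 and 804, and for mycn, with 557 and 764. With each group taken separately, 16.7% of all genes on this scale lay below the normal-diet libraries and 23.2% below the high-fat libraries. The share below all 5 was not counted.

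**Figure D4:**
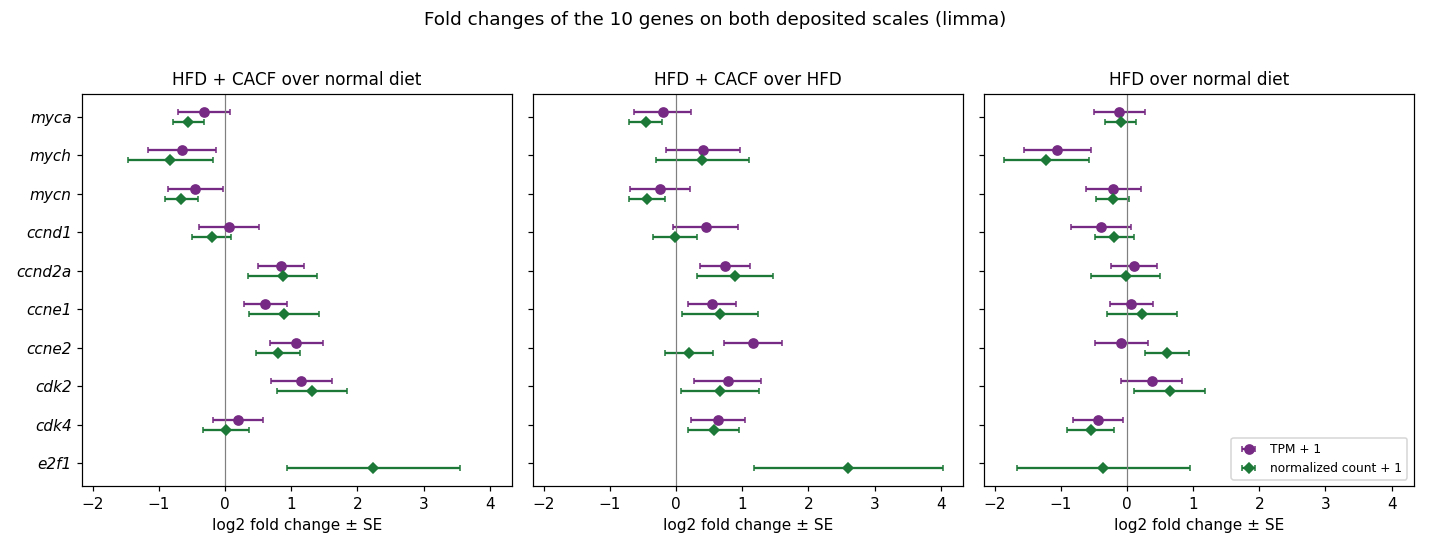
Log2 fold changes of the 10 genes with standard errors (horizontal axes) in the 3 comparisons, in TPM (circles) and in normalized counts (diamonds), both from limma fits of all 7 libraries. With CACF against the normal diet the 3 Myc genes lie left of 0 on both scales. ccnd2a, ccne1, ccne2 and cdk2 lie right of 0 on both. e2f1 was fitted on normalized counts only, where it passed the filter only through the CACF libraries.

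The genes around this set were read from lists of textbook members, by counts and medians alone. For CACF against the normal diet, 29 of 30 tested S-phase genes that E2F factors activate had a mean above that of the normal diet, with a median log2 fold change of 1.1 in TPM and 1.06 in normalized counts, beside 63.8% of all tested genes above and a median of 0.19. None of the 30 passed in limma or edgeR, which called 0.0771% and 0.0188% of all genes. DESeq2 on recovered reads called 7 of them, where it called 3.65% of all genes. tyms, which makes thymidylate for DNA synthesis, had 20.3 and 3.68 TPM with CACF, against 0.576, 1.90 and 2.16 TPM on the normal diet (log2 fold change 2.03 ± 0.56, adjusted p = 0.213 in limma). cdk1, the kinase of mitotic entry, had 21.1 and 11.7 TPM with CACF and 3.60, 5.59 and 6.29 TPM on the normal diet (log2 fold change 1.47 ± 0.41, adjusted p = 0.228 in limma). Both were among the 7 genes that DESeq2 called (adjusted p = 0.0042 for tyms and 0.0213 for cdk1). CACF fish 2 was highest for both genes. The median of the list was 0.48 without CACF fish 2 and 1.75 without CACF fish 4. The list median was 0.89 without normal-diet fish 1, and 0.25 without both CACF fish 2 and normal-diet fish 1. In the same order, the medians of all tested genes in these fits were 0.22, 0.16, 0.025 and 0.057.

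Among 15 tested genes of the Rb and E2F family, 14 had higher means with CACF than on the normal diet (median 0.47 in TPM), but 11 of 15 in normalized counts, with a median of 0.18. lin54, a subunit of the complex that pairs E2F with Rb relatives, had 10.4 and 7.81 TPM with CACF and 4.75, 6.29 and 3.82 TPM on the normal diet, but its log2 fold change of 0.77 in TPM was -0.080 in normalized counts. All 7 tested genes among the other G1 cyclins and kinases were above the normal-diet mean in TPM (median 0.40). In normalized counts 6 of 7 were above (median 0.29). Of these genes, cdk6 passed the TPM filter only through the CACF libraries, and the median of 0.40 is its value. Nothing is therefore read from that count or median in TPM. Of 9 Cdk inhibitor genes, 6 were above and 3 below in TPM (median 0.15), and 5 were above in normalized counts (median 0.29). cdkn2d, an INK4 inhibitor of Cdk4, had 7.76 and 8.98 TPM with CACF and 3.95, 5.02 and 2.11 TPM on the normal diet (log2 fold change 1.05 ± 0.39, adjusted p = 0.331 in limma). cdkn1cb, a Cip/Kip inhibitor, had 1.35 and 1.62 TPM with CACF and 6.63, 4.58 and 1.88 TPM on the normal diet (log2 fold change -1.0 ± 0.42, adjusted p = 0.367 in limma). Among 11 genes of cyclin E and Myc turnover, 8 were above in TPM (median 0.42) and 7 in normalized counts (median 0.17). Among them fbxw7, the ligase subunit that marks cyclin E and Myc for degradation, had 13.9 and 12.2 TPM with CACF and 4.1, 8.25 and 5.37 TPM on the normal diet (log2 fold change 1.07 ± 0.38, adjusted p = 0.320 in limma).

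On the Myc side, counts in TPM lay close to the 63.8% of all tested genes above the normal-diet mean. In the Myc network, 8 of 13 tested genes had a higher mean with CACF in TPM (median 0.084) but only 4 of 13 in normalized counts (median -0.16). mycla, an L-myc gene, had 15.1 and 10.5 TPM with CACF, against 2.43, 6.46 and 6.58 TPM on the normal diet, the opposite direction to myca and mycn (log2 fold change 1.23 ± 0.43, adjusted p = 0.310 in limma). Of 29 nucleolar and metabolic genes that Myc activates, 19 were above the normal-diet mean in TPM and 13 in normalized counts, with medians of 0.19 and -0.038. The medians of all tested genes were 0.19 in TPM and 0.0085 in normalized counts. ddx21, a nucleolar RNA helicase gene, had 34.8 and 133 TPM with CACF and 179, 151 and 133 TPM on the normal diet (log2 fold change -1.16 ± 0.50, adjusted p = 0.374 in limma). In TPM CACF fish 4 was level with normal-diet fish 4, but in normalized counts ddx21 had 1257 and 3595 with CACF, below the 7845, 5043 and 5296 of the normal diet (log2 fold change -1.48). Without CACF fish 2 the log2 fold change in TPM was -0.21.

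**Figure D5:**
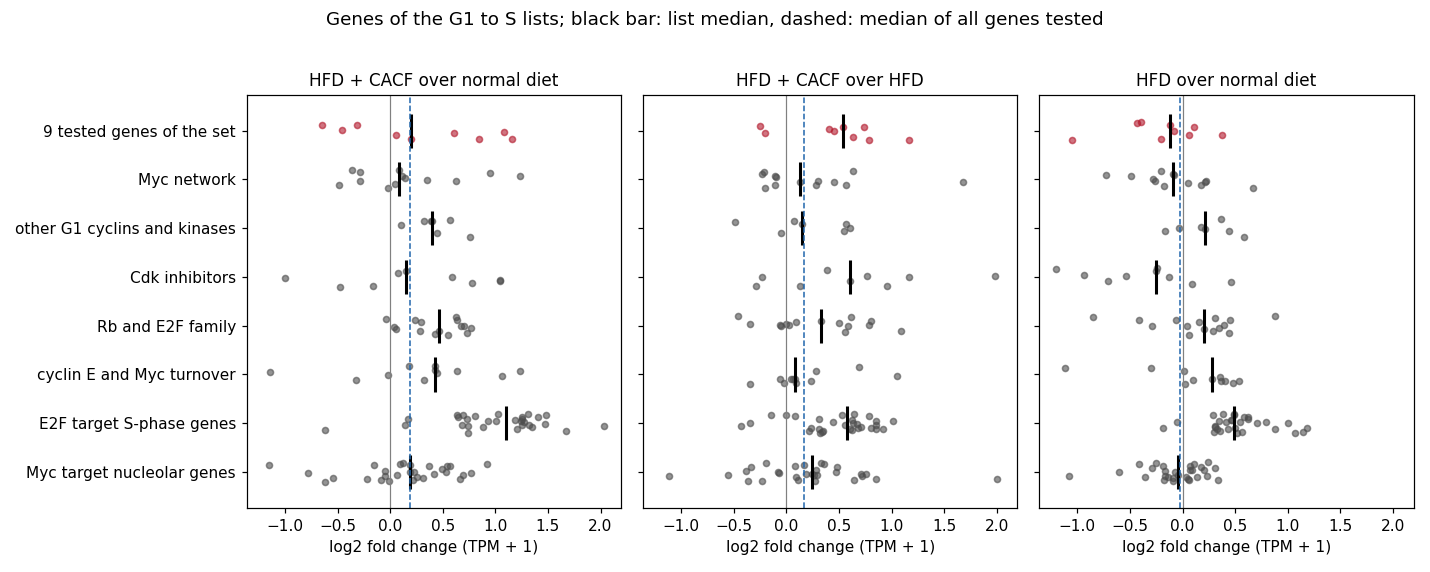
Log2 fold changes in TPM plus 1 (horizontal axes) of each tested gene of 7 lists, and in red of the 9 tested genes of the set, in the 3 comparisons; black bars are medians of a list and the dashed line is the median of all tested genes. The S-phase genes that E2F activates lie furthest to the right of the dashed line against the normal diet, with medians of 1.1 for CACF and 0.49 for the high-fat diet.

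Means of tissue markers differed as well, untested as lists. All 14 exocrine pancreas markers had lower means with CACF than on the normal diet, with a summed 11.7 to 111 TPM with CACF against 132 to 1410 TPM on the normal diet. Of 14 neuron and glia markers, 13 had higher means, with a summed 3149 to 4052 TPM with CACF against 1540 to 3760 TPM on the normal diet. Of 8 tested enterocyte markers, 7 had lower means, with a summed 123 to 140 TPM with CACF against 64.4 to 1441 TPM on the normal diet. Hepatocyte markers were lower in 7 of 10, muscle and keratinocyte markers in 6 of 10 each and lens markers in 10 of 10, while blood markers were higher in 3 of the 4 tested. Lens markers summed to 22918 TPM in normal-diet fish 1, but to 431 and 588 TPM in normal-diet fish 2 and 4. The CACF libraries had 387 and 465 TPM. The germ cell list had 1 tested gene. No gene of these lists passed in limma, and their part in the values of the cell cycle genes was not tested.

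CACF was then set against the high-fat diet alone, which asks what exposure added within that diet. This comparison shares its CACF libraries with the one above. None of the 9 tested genes passed in limma, where 1 of 18169 genes (0.0055%) did, and 1 of the 9, ccne2, had an unadjusted p under 0.05, as did 13.8% of all genes. The other fits also called 0 of the set, where limma on normalized counts called 0.0143% of all genes, DESeq2 4.81%, edgeR 0% and limma with the fish number as a block 5.17%. In TPM both CACF libraries lay above both high-fat libraries for ccnd2a, ccne2 and cdk4, for ccne1 and for the untested e2f1, and this held for 36.2% of all tested genes. None of the 10 lay below in TPM, where 13.4% of all tested genes did. Means were higher with CACF for 7 of the 9 in TPM, beside 62.9% of all genes. The median log2 fold change of the 9 genes was 0.54 in TPM, where that of all genes was 0.16, and 0.39 in normalized counts, where that of all genes was -0.043. The 0.54 is the value of ccne1, which passed the filter only through the CACF libraries. Nothing is therefore read from this median or from the counts of members above.

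Of the cyclin E genes, ccne2 depended on the scale. ccne2 had 9.96 and 5.78 TPM with CACF and 2.44 and 3.31 TPM on the high-fat diet, a log2 fold change of 1.16 ± 0.44 (adjusted p = 0.239 in limma). Its normalized counts were 298 and 175 with CACF, against 179 and 221 on the high-fat diet, where the groups overlapped and the log2 fold change was 0.20 ± 0.37 (adjusted p = 0.845 in limma). In both high-fat libraries an assembled locus at ccne2 had a higher TPM than the reference gene, 6.94 in fish 2 and 7.26 in fish 4, whereas in both CACF libraries locus and gene were equal. ccne1 had 2.01 and 1.19 TPM with CACF and 0.639 and 0.898 TPM on the high-fat diet (log2 fold change 0.54 ± 0.36, adjusted p = 0.597 in limma). Its normalized counts of 74.8 and 39.5 with CACF lay above 29.3 and 39.3 on the high-fat diet, as for 24.8% of all genes. The lower CACF value and the higher high-fat value nearly met, however.

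For cdk2 the CACF libraries had 8.40 and 2.75 TPM and the high-fat libraries 1.75 and 3.33 TPM, so the groups overlapped (log2 fold change 0.78 ± 0.51, adjusted p = 0.591 in limma). CACF fish 2 set this value, which was 0.12 without it. In normalized counts cdk2 had 202 and 70.9 with CACF and 58.7 and 96.1 on the high-fat diet. cdk4 had 6.67 and 4.88 TPM with CACF and 3.68 and 3.01 TPM on the high-fat diet, and its normalized counts of 103 and 87.0 with CACF lay above 66.3 and 61.0 on the high-fat diet. Its log2 fold change was 0.63 ± 0.41 in TPM and 0.57 ± 0.38 in normalized counts (adjusted p = 0.592 and 0.524 in limma), so the 2 scales gave similar sizes. In both high-fat libraries the locus assembled at cdk4 had a higher TPM than the reference gene, 5.75 in fish 2 and 5.69 in fish 4. With CACF that locus had 6.09 and 3.93 TPM, so by locus the groups overlapped. ccnd2a had 3.65 and 2.66 TPM with CACF, against 1.54 and 1.41 TPM on the high-fat diet. Its normalized counts were 76.5 and 42.4 with CACF against 30.6 and 30.0 on the high-fat diet. The log2 fold changes were 0.74 ± 0.38 in TPM and 0.89 ± 0.58 in normalized counts (adjusted p = 0.428 and 0.504 in limma). In normalized counts both CACF libraries lay above both high-fat libraries for cdk4 and ccnd2a, as for 24.8% of all genes.

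ccnd1 had 15.7 and 13.3 TPM with CACF and 6.49 and 16.0 TPM on the high-fat diet. High-fat fish 2 was the low library, and the log2 fold change of 0.45 ± 0.49 was -0.14 without it and -0.013 in normalized counts. myca and mycn were again lower with CACF in normalized counts, without overlap, as were 23.2% of all genes. myca had 590 and 804 with CACF, against 1007 and 891 on the high-fat diet, and mycn 557 and 764 with CACF, against 861 and 914 on the high-fat diet. Their log2 fold changes on that scale were -0.46 ± 0.25 and -0.44 ± 0.27 (adjusted p = 0.421 and 0.481 in limma). In TPM they were -0.20 and -0.25, and without CACF fish 2 they were 0.037 and -0.012. mych had 17.1 and 8.03 TPM with CACF and 5.87 and 12.6 TPM on the high-fat diet (log2 fold change 0.41 ± 0.56, adjusted p = 0.867 in limma), and leaving out fish 2 of either group turned the sign.

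In the surrounding lists the Cdk inhibitors had the highest median in this comparison, 0.61 in TPM and 0.64 in normalized counts, with 7 and 6 of 9 genes above the high-fat mean. cdkn1d, a Cip/Kip family inhibitor gene, had 9.44 and 8.35 TPM with CACF, against 1.39 and 1.62 TPM on the high-fat diet. This was a log2 fold change of 1.98 ± 0.59 (adjusted p = 0.140 in limma), which passed with the fish number as a replicate block (adjusted p = 0.0333) and in DESeq2 (adjusted p = 0.0278). Its normal-diet libraries had 9.99, 6.39 and 1.34 TPM, so they spanned both groups. mxd1, a Max partner that opposes Myc, had 4.41 and 3.48 TPM with CACF and 0.943 and 0.218 TPM on the high-fat diet (log2 fold change 1.68 ± 0.48, adjusted p = 0.127 in limma). It passed only in limma with the block (adjusted p = 0.0285). Its normal-diet libraries had 2.55, 2.38 and 0.381 TPM, and the last fell inside the high-fat range. The normalized count of mxd1 in high-fat fish 4 was only 5.17. S-phase genes were above the high-fat mean in 27 of 30 (median 0.58), but the median was -0.14 without CACF fish 2. The median of all tested genes in that fit was 0.18. Of the Rb and E2F family 10 of 15 were above in TPM (median 0.33) and 4 of 15 in normalized counts (median -0.23). tfdp1a, a dimer partner of E2F factors, shows this split, with 13.4 and 13.3 TPM with CACF against 5.13 and 6.46 TPM on the high-fat diet, but normalized counts of 485 and 451 with CACF against 479 and 589 on the high-fat diet. Among the other G1 cyclins and kinases, cdk6 passed the TPM filter only through the CACF libraries, so its higher mean is partly built in. In TPM 5 of 7 other G1 cyclins and kinases were above (median 0.15), 8 of 11 turnover genes (median 0.083), 7 of 13 Myc network genes (median 0.13) and 20 of 29 nucleolar genes (median 0.25). In normalized counts these were 3 of 7 (median -0.12), 4 of 11 (median -0.096), 6 of 13 (median -0.053) and 16 of 29 (median 0.045). The first 3 medians thus turned their sign, as did that of all genes, 0.16 in TPM and -0.043 in normalized counts. gnl3l, a nucleolar GTPase gene of the last list, had 19.6 and 30.9 TPM with CACF and 55.9 and 53.2 TPM on the high-fat diet (log2 fold change -1.11 ± 0.43, adjusted p = 0.242 in limma), and DESeq2 called it lower (adjusted p = 0.00905). srm, which makes spermidine, had 11.8 and 2.84 TPM with CACF and 2.39 and 3.42 TPM on the high-fat diet, a difference carried by CACF fish 2. Tissue markers differed here too. Means were lower with CACF than on the high-fat diet for all 14 exocrine pancreas, all 8 tested enterocyte and 7 of 10 hepatocyte markers. Means were higher for 12 of 14 neuron and glia, 7 of 10 lens, 6 of 10 muscle and 3 of 4 tested blood markers. Keratinocyte markers were split, with 5 above and 5 below. None of these markers passed in limma, and their part in the values of the cell cycle genes was not tested.

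The high-fat diet was last set against the normal diet, which asks about diet alone. It shares its normal-diet libraries with the first comparison. None of the 9 genes passed in limma, where 0 of 18169 genes (0%) passed, and 0 of the 9 had an unadjusted p under 0.05, where 3.31% of genes did. edgeR and DESeq2 called 0 of all genes too. The authors' deposited table had an adjusted p under 0.05 for 0.281% of its genes with one, and for none of the 9. It gave no adjusted p for e2f1. Means were higher on the high-fat diet for 3 of the 9, beside 47.2% of all genes. In TPM 0 of the 10 lay above all normal-diet libraries, where 6.11% of all tested genes did. The median log2 fold change of the 9 genes was -0.12, beside -0.027 over all genes.

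mych had the largest value, with 5.87 and 12.6 TPM on the high-fat diet and 35.3, 13.7 and 14.1 TPM on the normal diet. Both high-fat libraries lay below all 3 normal-diet libraries, as they did for 12.1% of all tested genes, and the log2 fold change was -1.05 ± 0.51 (adjusted p = 1.0 in limma). Without normal-diet fish 1 it was -0.63. In normalized counts mych had 196 and 371 on the high-fat diet and 1532, 369 and 440 on the normal diet, where high-fat fish 4 lay just above normal-diet fish 2. The authors' deposited table gave a log2 fold change of -1.46 with an adjusted p of 0.635, and none of the 10 genes was in the authors' deposited lists of genes changed at least 4-fold in either comparison with the normal diet.

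Of the other Myc genes, myca had 30.9 and 29.7 TPM on the high-fat diet and 24.8, 40.6 and 35.4 TPM on the normal diet (log2 fold change -0.12 ± 0.39), and mycn had 21.0 and 23.2 TPM on the high-fat diet and 16.6, 36.5 and 27.6 TPM on the normal diet (-0.21 ± 0.42). For both, the high-fat libraries fell inside the normal-diet range, and without normal-diet fish 2 the log2 fold changes were 0.031 and 0.041. The 3 Myc genes together had 54.7 and 61.0 TPM with CACF, 57.8 and 65.5 TPM on the high-fat diet, and 76.8, 90.7 and 77.1 TPM on the normal diet. Summed, they were thus lower in all 4 high-fat libraries than in the 3 normal-diet libraries, a description for which no test was made. In normal-diet fish 1 this order rested on mych, at 35.3 TPM. There myca and mycn, at 24.8 and 16.6 TPM, were below both high-fat libraries without CACF. The share of all genes so ordered was not counted. The sum is not a total of the Myc family, as it leaves out mycb, myclb and mycla. Their log2 fold changes in TPM over the normal diet were -0.20, -0.28 and 0.67 on the high-fat diet. With CACF they were 0.084, -0.48 and 1.23.

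ccne2 again depended on the scale. It had 2.44 and 3.31 TPM on the high-fat diet and 3.03, 1.97 and 4.67 TPM on the normal diet (log2 fold change -0.083 ± 0.40), but normalized counts of 179 and 221 on the high-fat diet against 131, 112 and 150 on the normal diet. In normalized counts the high-fat libraries lay above the normal-diet libraries, as for 11.5% of all genes on that scale, with a log2 fold change of 0.61 ± 0.33 (adjusted p = 0.785 in limma). cdk2 had 1.75 and 3.33 TPM on the high-fat diet and 0.775, 2.14 and 2.4 TPM on the normal diet, with log2 fold changes of 0.37 ± 0.46 in TPM and 0.65 ± 0.53 in normalized counts. Here too the groups overlapped. ccne1 had 0.639 and 0.898 TPM on the high-fat diet, inside the normal-diet range of 0.365 to 0.911 TPM, and normalized counts of 29.3 and 39.3 on the high-fat diet against 19.3, 31.3 and 39.6 on the normal diet, which overlap as well.

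cdk4 had 3.68 and 3.01 TPM on the high-fat diet and 3.47, 5.24 and 6.23 TPM on the normal diet (log2 fold change -0.44 ± 0.38). In normalized counts it had 66.3 and 61.0 on the high-fat diet, below the 83.5, 84.1 and 116 of the normal diet, as was the case for 14.1% of all genes (log2 fold change -0.55 ± 0.35, adjusted p = 0.785 in limma). ccnd1 had 6.49 and 16.0 TPM on the high-fat diet and 9.25, 15.1 and 18.7 TPM on the normal diet (log2 fold change -0.39 ± 0.45). High-fat fish 2 decided its sign, as the value was 0.20 without that library. ccnd2a lay inside the normal-diet range, with 1.54 and 1.41 TPM on the high-fat diet and 1.82, 1.30 and 0.867 TPM on the normal diet.

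The S-phase genes were the list, among the 7, whose median lay furthest from that of all genes on the high-fat diet as well. Of 30 tested, 28 had means above the normal diet in TPM and 29 in normalized counts, with medians of 0.49 and 0.70, beside 47.2% of all genes above. None passed in limma, edgeR or DESeq2. lig1, the DNA ligase of replication, had 6.80 and 8.27 TPM on the high-fat diet and 1.30, 3.81 and 4.19 TPM on the normal diet (log2 fold change 1.14 ± 0.46, adjusted p = 1.0 in limma). Normal-diet fish 1 had the lowest sum over the list, 137 TPM, and without that library the median was 0.26. In that fit the median of all tested genes was -0.18, where it was -0.027 with all 7 libraries. The Rb and E2F family had 11 of 15 genes above (median 0.20), although its lin52 had 1.70 and 8.51 TPM on the high-fat diet against 6.86, 12.1 and 6.37 TPM on the normal diet. Above the normal-diet mean were also 5 of 7 other G1 cyclins and kinases (median 0.21) and 9 of 11 turnover genes (median 0.28). Cdk inhibitors were below the normal-diet mean in 7 of 9 (median -0.25), with cdkn1d at 1.39 and 1.62 TPM on the high-fat diet and 9.99, 6.39 and 1.34 TPM on the normal diet. The Myc network was below in 8 of 13 in TPM (median -0.087), but above in 7 of 13 in normalized counts (median 0.0019). The nucleolar genes were below in 15 of 29 in TPM (median -0.044) and had a median of -0.035 in normalized counts. On the high-fat diet means were lower for all 10 keratinocyte, all 10 lens, 12 of 14 exocrine pancreas and 6 of 10 muscle markers. Means were higher for 7 of 10 hepatocyte, 8 of 14 neuron and glia and 5 of 8 tested enterocyte markers. Lens markers summed to 22918 TPM in normal-diet fish 1, but to 431 and 588 TPM in normal-diet fish 2 and 4. The high-fat libraries had 245 and 646 TPM. The part of the tissue markers in the values of the cell cycle genes was not tested.

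Across the 7 libraries myca with mycn, and cdk2 with ccne1, had the most similar profiles in the set. By the root mean square difference of standardized log2 values, the nearest member to myca was mycn, at 0.22 standard deviations, and the nearest to cdk2 was ccne1, at 0.24. ccnd2a and ccne2 were each less close to their nearest member, at 0.70 and 0.54, and mych was the most distant, at 1.17 from ccnd1. The members share their libraries and their depth, so this is a description. Of all other tested genes, sbds, cyb561d2, idh3g and cadpsa were nearest to the mean profile of the 9 genes, at 0.12 to 0.17.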

How the data were processed

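Messenger RNA libraries of whole larvae, stranded by their labelled kit, gave 7 sets of files. The submitters' processing notes list FastQC, Trimmomatic, HISAT2 and DESeq2 without versions, and the deposited files' names carry GRCz11. The sources used here name neither the counting program nor its strand setting. The authors deposited TPM, FPKM and coverage (a signal) per gene and library. Assembled loci sum to 1000000 TPM, and the 32520 reference genes add 739551 to 884988. The authors also deposited normalized counts for 29567 genes, with log2 fold changes, a Wald score and p-values. Each library's normalized counts were whole multiples of 1 value (100%, tolerance 0.001), which gave back reads.

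Genes with at least 1 TPM in 2 libraries (18169) were tested with limma 3.58.1 on log2(TPM + 1), in 1 fit of all 7 libraries with a variance trend and Benjamini-Hochberg adjustment. This scale understates changes of low genes. A second limma fit used log2(normalized count + 1) for genes with at least 10 in 2 libraries (20906). edgeR 4.0.16 and DESeq2 1.42.0 were run on the recovered reads as alternatives. The fits were tried on simulated reads, with larger changes than those of the tested members and no library standing apart. This trial does not cover smaller changes or such libraries. No 2 libraries of a group matched within sampling noise (chi-square per degree of freedom 48.1 to 247). Members and lists were chosen with earlier results of these data known. The 2 genes of each list with the smallest p per comparison could be named.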

Additional observations from a re-analysis of the deposited data

How the results depend on the processing

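In none of the 3 comparisons did any of the 9 tested genes pass under any of the 23 alternatives that gave it a value, and the lowest adjusted p was 0.121 (ccne2, CACF against the high-fat diet, limma with the fish number as a replicate block). Of 609 recomputed values of these genes, 569 kept their sign and 40 turned it. Part of this tally was fixed in advance, because some alternatives cannot move a fold change. Examples are robust moderation and leaving out a library of the group not compared. The tally is therefore no measure of robustness. A filter of 5 TPM left out ccnd2a, ccne1 and cdk2, and FPKM left out ccne1. Only 2 fish numbers are shared by all groups and the correlations of deviations were 0.101 to 0.373, so they were not taken as pairs. With the block limma called 155, 940 and 0 genes for CACF against the normal diet, CACF against the high-fat diet and the high-fat against the normal diet, where DESeq2 called 671, 960 and 0 and edgeR 4, 0 and 0. Leaving out together CACF fish 2 and normal-diet fish 1, the 2 libraries that stand apart, was chosen after seeing the data. A group left with 1 library was assumed to vary like the others. The cause of the sign changes below was not tested, except where genes were left out.

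For CACF against the normal diet the median of the set, 0.20, was -0.13 over the 6 genes that a filter of 5 TPM left, 0.45 in DESeq2, which includes e2f1, and -0.19 without both libraries that stand apart. ccnd1, at 0.057, became -0.043 after scaling to 1000000 TPM, -0.16 under a median-of-ratios factor, -0.060 after quantile normalization, -0.21 with the replicate block, -0.20 on normalized counts, -0.23 in edgeR, -0.22 in edgeR without a filter, -0.21 in DESeq2 and -0.32 without both libraries, and -0.21 to 0.26 when 1 library was left out. cdk4 was -0.19 without both libraries. lin54, at 0.77, was -0.080 on normalized counts, -0.082 in edgeR, -0.078 in edgeR without a filter and -0.059 in DESeq2.

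For CACF against the high-fat diet the median of the set, 0.54, ranged from 0.31 to 0.82 when 1 library was left out. With 1 library left out, myca ranged from -0.44 to 0.037, mych from -0.096 to 0.91, ccnd1 from -0.14 to 1.04 and srm from -0.011 to 1.72. Without both libraries myca was 0.037, mych -0.096 and srm -0.011. On normalized counts, in edgeR, in edgeR without a filter and in DESeq2, ccnd1 was -0.013, -0.056, -0.047 and -0.060, and tfdp1a -0.19, -0.19, -0.18 and -0.20.

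For the high-fat diet without CACF over the normal diet, leaving out 1 library gave myca -0.31 to 0.031, mycn -0.50 to 0.041, ccnd1 -0.98 to 0.20, ccnd2a -0.044 to 0.25, ccne1 -0.088 to 0.17, ccne2 -0.31 to 0.15 and lin52 -1.76 to 0.059. On normalized counts, in edgeR, in edgeR without a filter and in DESeq2, ccnd2a was -0.021, -0.12, -0.12 and -0.084, and ccne2 0.61, 0.60, 0.60 and 0.63. ccne1 was -0.088 with the block and -0.088 without both libraries, and lin52 was 0.022 on normalized counts and 0.021 in DESeq2. Of the list medians and counts, 922 recomputed values stayed within the spread between replicates or 1.5 times the count and 44 did not. Here too, some alternatives could not move a median.

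Only 2 or 3 libraries a group, and 0 to 26 reads for e2f1, limit what these data can show.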

Other observations

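In the abundance files the highest locus assembled at ccnd2a had 10.4 TPM in normal-diet fish 4, where the reference gene had 0.867 TPM, and locus and gene were within 5% in 4 of 7 libraries. At e2f1 a same-strand locus was assembled in 4 of 7 libraries, and in 3 of these it exceeded the reference gene by more than 1.5 times.

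In normal-diet fish 1, mych made up 46.0% of the joint TPM of the 3 Myc genes, where its share in the other 6 libraries was 10.2% to 31.3%.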
